A study of Homo sapiens with 4 samples.

Results

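The replication-dependent histone genes encode the linker histone H1 and the core histones H2A, H2B, H3 and H4. They were taken here as every protein-coding gene named H1-1 to H1-6 or with a symbol starting with H2AC, H2BC, H3C or H4C. Of 70 such genes in the GRCh38.p14 annotation, 65 lay under a peak of the deposited peak list, which held 18993 peaks of 8478 genes. All 4 libraries came from Jurkat cells, a human leukemic T cell line, which had been stimulated with PHA (phytohemagglutinin, a T cell mitogen) for 48 hours and crosslinked with UV light given as 264 nm and 400 mJ. They comprised 2 PRMT5 RIP libraries (RNA recovered by RNA immunoprecipitation, the RIP) and 2 input libraries (RNA of the lysate before it). PRMT5 is an enzyme that puts methyl groups on arginines of histones and of many RNA-binding proteins, and the comparison asked which RNAs were more abundant in its immunoprecipitate than in the lysate. The series' design text names Flag as the target of the immunoprecipitation, and no untagged or IgG control was analysed here. Each peak had 1 normalised read count, in RPM (reads scaled to a fixed library total), from the pooled RIP libraries and 1 from the pooled inputs, rounded to 0.01, so no spread between replicates was known, the depth was unknown and no test was made. Every fold is therefore a description of 2 pooled values. Peak lists hold regions picked for a higher level in the immunoprecipitate, so the values of all other genes in the list are given beside those of the histone genes.

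Replication-dependent histone mRNAs are made in S phase, when new chromatin needs histone protein. They are the metazoan mRNAs that end in a conserved stem-loop rather than in a poly(A) tail. SLBP binds that stem-loop, the U7 snRNP cuts the RNA downstream of it, and most of the genes have no intron and sit in dense clusters. Core histones form the nucleosome, with a tetramer of H3 and H4 flanked by dimers of H2A and H2B, and H1 binds the linker DNA where it enters and leaves.

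The histone mRNAs were among the most abundant RNAs of the immunoprecipitate. Summed over their 65 peaks, they made up 17.1% of all RPM in PRMT5 RIP peaks and 9.23% in input. The summed level was 2.86-fold higher in PRMT5 RIP than in input, against 1.54-fold over the whole list. Of the 20 genes with the highest RPM in PRMT5 RIP, 7 were histone genes, and of the 20 highest in input 1 was. Among the top 100 genes they numbered 29 in PRMT5 RIP and 20 in input. H1-5 stood highest of them, at rank 7 in PRMT5 RIP and rank 12 in input.

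Gene by gene, the value used was the log2 of PRMT5 RIP RPM over input RPM, with 0.01 RPM added to each and RPM summed over a gene's peaks. Its median over the 64 histone values (63 genes with a peak of their own and 1 peak shared by H2AC7 and H3C4) was 1.43, a 2.70-fold difference, with a range of -0.09 to 4.09. Over all 8478 genes the median was 2.30-fold. At least 2-fold more RPM in PRMT5 RIP was found for 53 of 64 (82.8%), while 62.3% of all genes met the same rule.

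The gap was wider among genes with input of at least 100 RPM than over the whole list, since the many genes with little input RNA had higher ratios. With input of at least 100 RPM, the median was 1.38 over 53 histone values and 0.59 over all 434 genes. In that range 42 of 53 histone values (79.2%) reached 2-fold against 29.7% of all genes. At least 4-fold was reached by 7 of 53 (13.2%) against 4.84%, and 1 of 53 (1.89%) lay below its input against 11.1%. Those 434 genes include the histone genes themselves.

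The same order appeared in each range of input. Between 10 and 100 RPM of input, 8 histone values had a median log2 ratio of 1.85 and 1827 other genes one of 0.80. Between 100 and 1000 RPM, the medians were 1.43 over 35 histone values and 0.56 over 321 other genes. At 1000 RPM and above, they were 1.27 over 18 histone values and 0.22 over 60 other genes. Below 10 RPM the medians lay closer, at 1.53 over 3 histone values and 1.37 over 6201 other genes. In the plot of both RPM values, most histone genes with abundant RNA lie above the line of 2 times the input. H3C1, H3C3 and H3C12 lie nearest to the line of equal levels.

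**Figure D1:**
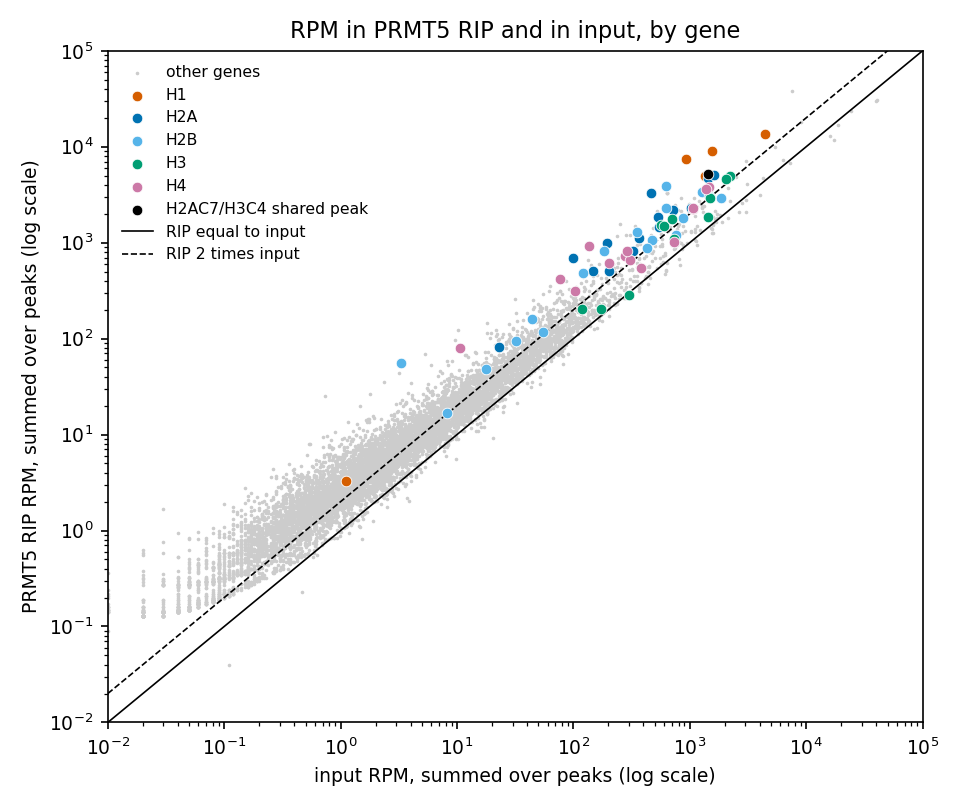
RPM in PRMT5 RIP (y axis, log scale) against RPM in input (x axis, log scale) for each gene, summed over its peaks, with histone genes coloured by family and other genes in grey; the solid line marks equal levels and the dashed line 2 times the input. Of the 64 histone points, 53 lie on or above the dashed line and 1, H3C1, lies below the solid line.

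By family, H1 had the highest median ratio and H3 the lowest. The median log2 ratio was 1.85 for H1 (5 genes), 1.63 for H2A (15 genes), 1.43 for H2B (18 genes), 1.39 for H4 (14 genes) and 0.97 for H3 (11 genes). At least 2-fold was reached by 5 of 5 H1 genes, 14 of 15 H2A genes, 16 of 18 H2B genes and 12 of 14 H4 genes, but by 5 of 11 H3 genes, where 62.3% of all genes met the rule. This count depends on the measure: by the peak caller's deposited log2 fold change, 10 of 11 H3 genes and 62 of 63 histone values reached 2-fold, as did 94.9% of all genes. With input of at least 100 RPM the counts were 4 of 4, 12 of 13, 10 of 12, 10 of 12 and 5 of 11 in the order H1, H2A, H2B, H4 and H3, against 29.7% of all genes. The ranges overlapped: the lowest H1 gene, at 1.53, lay below the highest gene of H2A, H2B and H4, while the highest H3 gene, at 1.43, lay below every H1 gene.

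**Figure D2:**
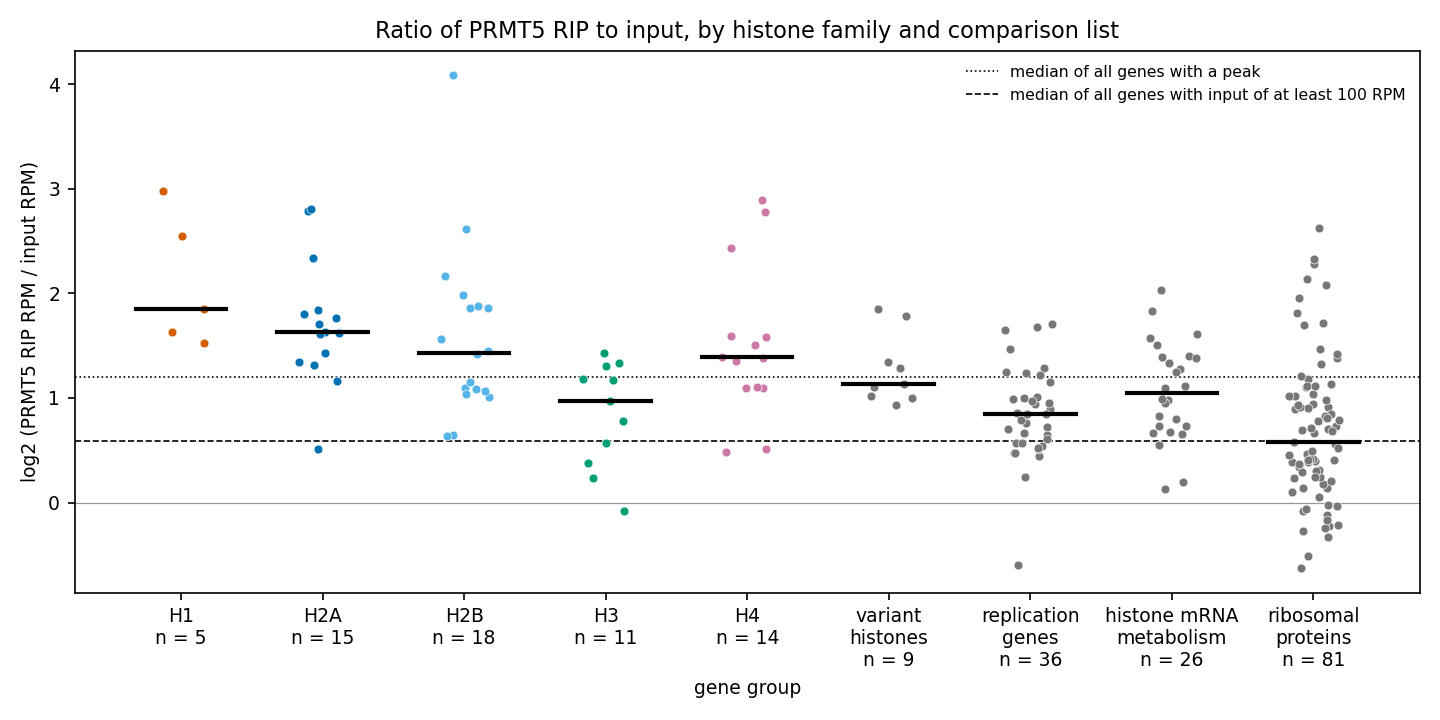
log2 ratio of PRMT5 RIP RPM to input RPM (y axis) for each gene of the 5 histone families and of 4 comparison lists (x axis), with a bar at each group's median, a dotted line at the median of all genes and a dashed line at the median of genes with input of at least 100 RPM. H1 has the highest median (1.85) and H3 the lowest of the histone families (0.97).

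H1 linker histones compact chromatin, and H1-5, H1-2 and H1-4 had the 3 highest RPM values of the histone genes in the RIP. H1-5 (chr6:27866792-27867588, minus strand) had 13724 RPM in the RIP and 4434 RPM in input, a 3.10-fold difference. H1-2 (chr6:26055740-26056470, minus strand) had 9052 and 1548 RPM, 5.85-fold. H1-4 (chr6:26156329-26157115, plus strand) had 7369 and 935.08 RPM, and its 7.88-fold difference was the highest of all 434 genes with input of at least 100 RPM. H1-3 (chr6:26234212-26234987, minus strand) had 4917 and 1363 RPM, 3.61-fold. The order of the ratios was thus not the order of the levels, since H1-5, with the most RNA, had the second lowest ratio of the 5 genes. H1-6, which encodes the testis-specific H1t (chr6:26107412-26108135, minus strand), was near the bottom of the range with 3.25 RPM in the RIP and 1.12 RPM in input over 2 peaks. H1-1 had no peak.

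H2A forms a dimer with H2B, and its genes had the second highest median. The most abundant in input were H2AC19, with 5022 RPM in the RIP and 1629 RPM in input (3.08-fold), and H2AC18, with 4669 and 1428 RPM (3.27-fold), both on chromosome 1. H2AC11 followed with 2277 and 1020 RPM (2.23-fold). H2AC17 had the highest ratio of the family, with 3262 RPM in the RIP and 464.82 RPM in input (7.02-fold). H2AC16 came next with 690.68 and 99.8 RPM (6.92-fold). These genes lie at chr6:27892699-27893185 (minus strand) and chr6:27865317-27865798 (plus strand), and both had far less input RNA than H2AC18 and H2AC19. The lowest ratios belonged to H2AC20, with 1046 and 732.59 RPM (1.43-fold), and to H2AC11. H2AC20 was the only H2A gene under 2-fold by RPM.

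H2B genes spread more widely. The most abundant in input were H2BC21, with 2895 RPM in the RIP and 1847 RPM in input (1.57-fold), H2BC4, with 3098 and 1459 RPM (2.12-fold), and H2BC18, with 3405 and 1271 RPM (2.68-fold). None of these 3 genes reached 3-fold, and in the RIP H2BC5 stood above them. H2BC6 (chr6:26183761-26184230, plus strand) had the highest ratio of all histone genes, 17.0-fold, on only 56.2 RPM in the RIP and 3.3 RPM in input. H2BC5 came second with 3857 and 630.46 RPM (6.12-fold), over a peak of 12867 nt. That peak lists 2 identifiers, so its value may not be of H2BC5 alone. It has no deposited log2 fold change or FDR and is the histone value missing from counts by that fold change. The lowest ratios were those of H2BC7, with 1192 and 767.58 RPM (1.55-fold), and of H2BC21.

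H3 pairs with H4 in the nucleosome's central tetramer, and its tail carries many of the studied histone marks. The most abundant H3 genes in input were H3C14, with 4973 RPM in the RIP and 2194 RPM in input (2.27-fold), H3C15, with 4588 and 2036 RPM (2.25-fold), and H3C2, with 2905 and 1485 RPM (1.96-fold). The highest ratios were those of H3C13, with 1512 and 560.08 RPM (2.70-fold), and H3C11, with 1781 and 705.56 RPM (2.52-fold). By RPM no H3 gene reached 3-fold, though the share of all genes past 3-fold was not computed. By the deposited log2 fold change the median of the family was 1.66, which is past 3-fold, against 2.06 over all genes. H3C1 was the only histone gene below its input by RPM, with 285.39 RPM in the RIP and 302.81 RPM in input, although the deposited log2 fold change of the peak caller puts it at 0.82, above input. H3C3 followed with 204.3 and 173.71 RPM (1.18-fold), and H3C12 with 1869 and 1441 RPM (1.30-fold). The H3 genes were not scarce: per kilobase of peak, their median input was 1411 RPM per kb, against 1758 for H1, 954.46 for H2A, 817.58 for H4 and 586.88 for H2B (peaks up to 1000 nt).

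H4 is the most conserved of the histones, and its genes encode nearly the same protein. The most abundant in input were H4C11, with 3772 RPM in the RIP and 1471 RPM in input (2.56-fold), H4C12, with 3649 and 1389 RPM (2.63-fold), and H4C15, with 2287 and 1063 RPM (2.15-fold). The highest ratios fell on genes with less RNA. H4C16 on chromosome 12 had 79.41 and 10.68 RPM (7.44-fold), and H4C5 had 932.04 and 136.01 RPM (6.85-fold). The lowest were those of H4C4, with 1023 and 732.02 RPM (1.40-fold), and H4C6, with 544.53 and 381.65 RPM (1.43-fold).

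Genes given by their range alone were H2AC4, H2BC3, H2BC9, H2BC10, H3C7, H3C8, H3C10, H4C2, H4C3, H4C9 and H4C13. These 11 genes had log2 ratios from 0.57 (H3C8) to 2.16 (H2BC10) at input from 17.88 RPM (H2BC3) to 727.75 RPM (H3C8), and each lay within the range of its family. Across the genes of a family, the ratio fell with input in H4 (Spearman rho of -0.73, 14 genes), less so in H2A (-0.50, 15 genes) and H2B (-0.40, 18 genes), and not in H3 (0.26, 11 genes). Over all 64 histone values rho was -0.26. Input RPM enters both measures and the points share the same 2 pooled values, so these are descriptions only.

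The genes fell into a large region on chromosome 6, 2 groups on chromosome 1 and 1 gene each on chromosomes 12 and 21. Chromosome 6 was split where neighbouring genes lay more than 0.2 Mb apart, which gave 4 groups. Group 1 (chr6:25726063-25727345) held H2AC1 and H2BC1, the latter known as the testis-specific H2B, and had no peak. Group 2 (chr6:26017032-26285534, 32 annotated genes) held the remaining 3 genes without a peak, H1-1, H3C6 and H4C7. The median ratio was 2.84-fold over 49 values on chromosome 6 and 2.54-fold over 13 genes on chromosome 1. This gap was smaller than that between H1 (3.61-fold) and H3 (1.96-fold), but all H1 genes lay on chromosome 6. By family, the median log2 ratio was higher on chromosome 6 than on chromosome 1 in H2A (1.79 over 10 genes against 1.62 over 5). The same held in H2B (1.51 over 14 genes against 1.42 over 3) and H4 (1.39 over 11 genes against 1.10 over 2). The 2 H4 genes of chromosome 1, H4C14 and H4C15, had near-equal RPM. In H3 it was lower on chromosome 6 (0.68 over 8 genes against 1.18 over 3). By the deposited log2 fold change, H2B was lower on chromosome 6 (2.49 against 2.63), while H2A, H4 and H3 kept their order.

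Within chromosome 6, the median was 1.45 in group 2 (27 genes with a peak of their own), 1.16 in group 3 (chr6:27132316-27147562, 5 genes) and 1.54 in group 4 (chr6:27807479-27893891, 16 genes). Some neighbouring genes differed widely. H3C1, below its input, lay next to H4C1, with 417.25 RPM in the RIP and 77.41 RPM in input (5.39-fold). H4C4 (1.40-fold) and H4C5 (6.85-fold) lay on either side of H2BC7 and the shared H2AC7 and H3C4 peak.

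The low position of H3 was largest in group 2 of chromosome 6. There the 5 H3 genes, all with input above 100 RPM, had a median log2 ratio of 0.57. That was close to the 0.59 of all genes with input of at least 100 RPM. Of these H3 genes, 0 of 5 reached 2-fold, against 62.3% of all genes and 29.7% of those with such input. By the deposited log2 fold change, 4 of 5 did, against 94.9%. Their neighbours in the same group had medians of 2.20 (4 H1 genes), 1.65 (8 H2B genes), 1.58 (7 H4 genes) and 1.43 (3 H2A genes). In group 4 the 3 H3 genes had a median of 1.31, close to the 1.32 of 4 H2B genes and the 1.39 of 3 H4 genes, and below the 1.84 of 5 H2A genes. In group 1 of chromosome 1 (chr1:149782689-149887965, 11 genes) the 3 H3 genes had a median of 1.18, the 2 H4 genes 1.10, the 2 H2B genes 1.04 and the 4 H2A genes 1.63. By RPM, H3 was therefore the lowest family in groups 2 and 4 of chromosome 6 and not in this one. The gap to the next family was small in group 4, as were those of H3 to H4 and H2B in this group. By the deposited log2 fold change, H3 was the lowest in this group too, at 2.05 against 2.06 for H4.

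The 13 genes of chromosome 1, all with input above 100 RPM, ranged from 0.51 (H2AC20) to 1.98 (H2BC26) on the log2 scale. None reached 4-fold by RPM, but only 4.84% of all genes with input of at least 100 RPM did, so this does not set them apart. By the deposited log2 fold change their median was 2.22, which is past 4-fold, against 2.06 over all genes. H4C14 had 2269 RPM in the RIP and 1059 RPM in input (2.14-fold), and H2AC21 had 1121 and 362.83 RPM (3.09-fold). H4C16 (chr12:14770720-14771131, minus strand) stood highest of the genes outside chromosome 6, with the values given above. H2BC12L (chr21:43565182-43565648) had 16.64 and 8.27 RPM (2.01-fold), and its peak lay inside one of 62287 nt on the other strand, assigned to HSF2BP, with 2.82 and 1.86 RPM.

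H2A and H2B genes often stand head to head and are transcribed away from a shared promoter. Pairs with starts within 500 bases of each other, in which both genes had a peak of their own, numbered 10. Their starts lay 194 to 248 nt apart, so each pair reads 2 families from 1 stretch of DNA. Genes without a peak of their own were not paired, among them H2AC7 of the shared peak, which faces H2BC7. The 4 stretches below lie between the annotated starts (GRCh38.p14, RefSeq) and are shown because they cover the pair with the widest difference in ratio (H2AC17 and H2BC17), the pair with the narrowest (H2AC11 and H2BC11), the pair with the least RNA (H2AC15 and H2BC15) and the pair of group 2 on chromosome 1 (H2AC25 and H2BC26). Each is read toward the H2B gene, and capitals mark the octamer ATTTGCAT (the site of OCT1, product of POU2F1), CCAAT (bound by NF-Y) and TATAAA, on either strand. They lie at chr6:27893186-27893424 (plus strand), chr6:27132796-27133042 (minus strand), chr6:27838376-27838568 (plus strand) and chr1:228457874-228458102 (plus strand), in the order printed.
H2AC17-H2BC17: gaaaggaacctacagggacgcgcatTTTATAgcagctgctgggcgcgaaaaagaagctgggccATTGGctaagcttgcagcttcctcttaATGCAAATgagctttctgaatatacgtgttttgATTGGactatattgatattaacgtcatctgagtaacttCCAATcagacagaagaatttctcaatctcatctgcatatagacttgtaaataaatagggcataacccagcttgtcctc
H2AC11-H2BC11: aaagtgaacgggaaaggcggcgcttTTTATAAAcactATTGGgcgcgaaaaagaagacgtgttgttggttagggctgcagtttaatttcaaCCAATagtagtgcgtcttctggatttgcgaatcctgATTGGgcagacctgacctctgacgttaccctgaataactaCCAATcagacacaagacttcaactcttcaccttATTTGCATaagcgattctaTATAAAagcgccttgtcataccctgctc
H2AC15-H2BC15: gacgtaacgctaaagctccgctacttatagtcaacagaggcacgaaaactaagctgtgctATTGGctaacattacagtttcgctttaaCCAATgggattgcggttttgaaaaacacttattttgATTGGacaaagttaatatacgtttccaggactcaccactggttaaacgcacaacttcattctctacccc
H2AC25-H2BC26: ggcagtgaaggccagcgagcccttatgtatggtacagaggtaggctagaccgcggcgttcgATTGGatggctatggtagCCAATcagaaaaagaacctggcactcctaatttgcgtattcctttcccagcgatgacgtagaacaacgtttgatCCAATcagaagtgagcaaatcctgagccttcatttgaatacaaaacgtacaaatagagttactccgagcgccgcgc

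Sharing a promoter region did not go with sharing a ratio in every pair. H2AC17 (7.02-fold) faced H2BC17, with 1809 RPM in the RIP and 880.85 RPM in input (2.05-fold), the widest difference, at 1.77 on the log2 scale. The H2B gene had 1.90 times the input RPM of its partner, so the partner with less RNA had the higher ratio. In the pair of H2AC11 (2.23-fold) and H2BC11, the latter had 1054 and 475.61 RPM (2.22-fold), and the ratios differed by 0.01. The H2BC11 value rests on a peak of 6349 nt that ran past the gene's end, so it may not be of that gene alone.

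The pair with the least RNA was H2AC15, with 81.38 RPM in the RIP and 22.76 RPM in input (3.58-fold), and H2BC15, with 95.08 and 32.07 RPM (2.96-fold). On chromosome 1, H2AC25 had 826.93 and 325.31 RPM (2.54-fold) and H2BC26 had 479.44 and 121.46 RPM (3.95-fold). Neither of these stretches holds the octamer in exact form, nor does that of H2AC13 and H2BC13.

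Of the other pairs, H2AC14 had 1852 RPM in the RIP and 528.97 RPM in input (3.50-fold) and its partner H2BC14 889.78 and 425.06 RPM (2.09-fold). H2AC8 had 502.58 and 201.59 RPM (2.49-fold) and H2BC8 159.01 and 43.8 RPM (3.63-fold). H2AC12 had 981.55 and 194.07 RPM (5.06-fold) and H2BC12 2304 and 624.95 RPM (3.69-fold). In the last 2 of these pairs the gene with less input had the higher ratio, and in the first it was the gene with more. H2AC13 had 2182 and 714.96 RPM (3.05-fold) and H2BC13 1290 and 355.08 RPM (3.63-fold). H2AC6 had 1465 and 542.32 RPM (2.70-fold), and its partner was H2BC4 (2.12-fold). The last pair was H2AC20 and H2BC21, which were the lowest of H2A and next to lowest of H2B.

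In all, the H2A gene had the higher ratio in 6 pairs and the H2B gene in 4, and the gene with less input RPM, which is the divisor of the ratio, had the higher one in 7. Both genes reached 2-fold in 9 of 10 pairs, and in 3 pairs the ratios differed by more than 1.5 times. Of single genes, 62.3% of all and 29.7% of those with input of at least 100 RPM reached 2-fold. These are not shares of pairs. The median difference, H2A minus H2B, was 0.14 on the log2 scale and lay between a lowest value of -0.63 (H2AC25 and H2BC26) and the highest of 1.77.

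The families differed in the letters of their promoters, taken as windows from 250 bases before to 50 after each start, on both strands, in RefSeq sequence of GRCh38.p14. The octamer ATTTGCAT was found in 11 of 16 H2A and 14 of 18 H2B windows, in 1 of 11 H3 windows and in none of 6 H1 and 13 H4 windows, where 1.77% of all 35116 windows hold it. CCAAT was in every H1, H2A, H2B and H3 window and in 3 of 13 H4 windows, against 34.6% of all. TATAAA was in 3 of 6 H1, 12 of 16 H2A, 12 of 18 H2B, 8 of 11 H3 and 7 of 13 H4 windows, against 11.5% of all. The H2A ratio did not follow the octamer, with a median log2 ratio of 1.63 over 9 genes with it and 1.62 over 5 without. In H2B the median was 1.15 over 13 genes with the octamer and 1.92 over 4 without, whose median input was 475.61 and 238.27 RPM.

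Most peaks had the outline of the whole short gene. Of the 64 histone values, 63 rested on 1 peak, 44 began at the annotated start of the gene and 56 covered at least 90% of it. Of the 64, 22 ended at the annotated end and 29 ended 1 to 25 nt before it, and peak edges in the list often lay in steps of 25 nt. Such peaks give no position within these short mRNAs. The annotation of 5 genes (H2BC4, H2BC12, H2BC18, H2BC21 and H4C15) runs 1725 to 29193 nt past the end of the peak, and there the peak covered only the short form next to the start. For H4C15 the peak began 81 nt after the annotated gene start and at the start that RefSeq's promoter window for it uses. The reverse held for 3 wide peaks. That of H2BC5 spanned 12867 nt, that of H2BC11 spanned 6349 nt and ran past the gene's end, and that of H2AC7 and H3C4 (chr6:26196790-26199286, minus strand), with 5143 RPM in the RIP and 1441 RPM in input (3.57-fold), covered both genes and was kept out of both families. Peaks on the other strand overlapped 4 of the histone peaks. The one over H4C8 (608.12 RPM in the RIP and 203.11 RPM in input, 2.99-fold) was 175 nt wide with 238.37 and 70.4 RPM, that over H2AC21 75 nt with 106.04 and 26.99 RPM, and those over H2BC5 (assigned to H2BC6-AS1, 0.99 and 0.25 RPM) and H2BC12L were faint.

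Some of these genes are near copies of each other, and reads of copies could have been divided between them. Promoter windows were 100% alike in H4C14 and H4C15, whose RPM differed by less than 1%: 2269 and 2287 in PRMT5 RIP, and 1059 and 1063 in input. They were 98.3% alike in H4C11 and H4C12, with RPM within 5.90% of each other. The next closest of 421 pairs compared within families was 84% alike. Likeness was the count of identical positions in windows of 300 bases, and the transcripts themselves were not compared. Other copies may therefore have been missed, and the setting that counts near copies once merged only the 2 H4 pairs. H2AC18 and H2AC19, and H3C14 and H3C15, which lie in an inverted arrangement on chromosome 1, also had near-equal ratios. How multiply mapped reads were treated is not given in the sources used here, and the part of it in these values was not tested.

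Pseudogenes with symbols of the same pattern were kept apart, and 5 of 15 had a peak. H2BC27P had 90.15 RPM in the RIP and 35.34 RPM in input (2.55-fold), H2BC20P 57.24 and 42.97 RPM (1.33-fold) and H2BC19P 17 and 5.99 RPM (2.84-fold). H2AC10P, with 0.14 and 0.02 RPM, and H2BC16P, with 1.23 RPM in the RIP and listed at 0 in input, each had a peak of 25 nt.

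Histone variants replace the replication-dependent proteins outside S phase, and their mRNAs are mostly polyadenylated. Of 12 such genes 9 had a peak, with a median log2 ratio of 1.13 and a range of 0.94 to 1.85, and 7 of 9 reached 2-fold, against 62.3% of all genes. Their median lay between those of H4 and H3, but rose to 1.41, above H4, with the peak of highest input alone and fell to 0.92, below H3, without peaks wider than 1000 nt. H2AX, whose mRNA can end in either form, had the most RNA, with 1449 RPM in the RIP and 674.41 RPM in input (2.15-fold). H2AZ1, which marks promoters, had 288.58 and 150.77 RPM (1.91-fold), the lowest ratio of the list, and its paralog H2AZ2 had 171.52 and 78.25 RPM (2.19-fold). H1-10, a linker histone variant, had 191.79 and 53.13 RPM (3.61-fold), the highest. Both genes of the replacement histone H3.3 stood near 2-fold, H3-3A with 126.97 and 63.63 RPM and H3-3B with 130.62 and 64.34 RPM.

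Other abundant or S phase mRNAs had lower medians. Cytosolic ribosomal protein mRNAs, which are short, abundant and polyadenylated, had a median of 0.58 over 81 of 88 genes, at a median input of 791.23 RPM, and 22 of 81 reached 2-fold, near the 29.7% of all genes with input of at least 100 RPM. They took up 16.3% of PRMT5 RIP and 16.1% of input RPM, so their share did not rise as that of the histone mRNAs did. RPL19, the most abundant in input, had 4673 RPM in the RIP and 4234 RPM in input (1.10-fold), followed in input by RPL13A with 4080 and 3123 RPM (1.31-fold) and RPS6 with 7093 and 3060 RPM (2.32-fold). RPS15A was lowest, at 33.57 and 51.89 RPM, and RPS29 highest, at 1559 and 253.15 RPM (6.16-fold).

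DNA replication genes had a median of 0.84 over 36 of 48 genes, of which 10 reached 2-fold, against 62.3% of all genes. TYMS, which makes thymidylate, had 231.68 and 167.12 RPM (1.39-fold), and the polymerase subunit POLD2 had 101.2 and 85.62 RPM (1.18-fold). MCM7 of the replicative helicase had 167.92 and 84.45 RPM (1.99-fold). GINS1, also of that helicase, had the highest log2 ratio with 0.01 RPM added, at 4.14 and 1.26 RPM (3.29-fold), and POLE2, another polymerase subunit, was the only gene of the list below its input, at 53.84 and 81.54 RPM.

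A list of genes that act in histone gene transcription, act on histone mRNA or take up histone protein had a median of 1.04 over 26 of 39. Of these, 13 of 26 reached 2-fold, against 62.3% of all genes. SLBP, the stem-loop binding protein, had 38.02 RPM in the RIP and 12.79 RPM in input (2.97-fold). LSM10, a subunit of the U7 snRNP, had 43.75 and 29.82 RPM (1.47-fold). NPAT, CASP8AP2, LSM11 and RNU7-1 had no peak named for them. Highest was UPF1, a helicase of histone mRNA decay, with 4.38 and 1.06 RPM (4.13-fold), and lowest LSM1, a decay factor, with 10.58 and 9.66 RPM (1.10-fold). The chaperone NAP1L1 had the most RNA, with 188.89 and 118.59 RPM (1.59-fold), ahead of SSRP1, a subunit of the chaperone FACT, with 85.93 and 75.06 RPM (1.14-fold).

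The label of the cells was checked against marker genes. Of 14 T cell markers 13 had a peak, with input from 0.69 to 417.11 RPM and a median log2 ratio of 0.33, and of 12 markers of B, myeloid, erythroid, epithelial and fibroblast cells 3 had one (CD79A, CSF1R and HBA1), with input from 11.01 to 37.28 RPM. The share of cells in S phase was not measured in these samples.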

How the data were processed

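UV crosslinking RIP-seq had been performed on Jurkat cells, with 2 PRMT5 RIP and 2 input libraries prepared with a directional kit. Per the labels, the submitters' processing notes name fastp, HISAT2 and hg38, without versions. The peak caller, the annotation, the counting, the pooling, the selection of RNA and the treatment of multiply mapped reads are not given in the sources used here. The authors deposited 1 list of 18993 peaks with RPM values for PRMT5 RIP and input, rounded to 0.01 and with an unstated denominator, and the log2 fold change, p-value, FDR and score (−log10 of the p-value) of their peak caller. Over the list the deposited RPM summed to 755969 in PRMT5 RIP and 489424 in input. The deposited log2 fold change differed from the log2 of RIP over input RPM, served only as an alternative setting, and a filter used the FDR. The score was not used.

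The first identifier of each peak was named by the symbol in the study's supplementary table, otherwise by the GRCh38.p14 RefSeq gene on the same strand with the largest overlap of extents. Of the 8478 identifiers, 7736 received a symbol. No histone gene was named by the supplementary table. Where table and position both gave a name, 811 of 834 matched. The strand of 57 of 63 histone genes was in the reference, and for the other 6 the peak's strand was taken. RPM was summed over a gene's peaks, 0.01 RPM was added and the log2 ratio taken (Python 3.11.15, pandas 2.3.3, numpy 2.4.6, matplotlib 3.10.9). Naming and ratios were tested on simulated data. With 1 pooled value per kind of library, no test, SD or interval was computed, and the depth per library is unknown. Folds in the text are plain ratios of RPM, and calls of 2-fold and 4-fold used the ratio with 0.01 RPM added. Family medians of input were also given per kilobase of peak, for peaks up to 1000 nt. Ranks and statements of which genes had the most RNA used RPM summed over peaks, without adjustment for peak width.

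Named in full were all H1 genes, in each core family the 3 genes with the highest input and the 2 highest and 2 lowest ratios (input of at least 1 RPM), genes outside chromosome 6 and divergent pairs. Of the comparison lists, the 3 genes with the highest input, those with the highest and the lowest ratio and the stem-loop and U7 factors were named, and H3-3A and H3-3B were added after their values were seen. The members, lists and rules were chosen with earlier results of these data known. Protein sequences, a genome and histone stem-loop sequences were not used here.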

Additional observations from a re-analysis of the deposited data

How the results depend on the processing

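Under 12 alternative settings, 150 values of 14 results were recomputed, and 138 stayed within 1.5 times of the reported value. The other 12 moved under 1 setting, the deposited log2 fold change of the peak caller in place of the RPM ratio, and none changed sign. With it the median was 2.26 for all histone genes, 2.58 for H1, 2.36 for H2A, 2.49 for H2B, 1.66 for H3, 2.22 for H4, 2.32 for chromosome 6, 2.22 for chromosome 1, 1.82 for variant histones, 1.58 for ribosomal protein genes, 1.58 for DNA replication genes and 1.85 for histone mRNA metabolism genes, while the median of all genes was 2.06. H3C1 lay above input with it (0.82), and the medians of variant histones, H4 and H3 changed order in 2 other settings. The cause was not tested. H1 had the highest and H3 the lowest family median under the reported and all 11 alternative settings that recompute it, while the order of H2A, H2B and H4 changed. With 1 RPM added, the median over all genes was 0.75, and 30.0% of them reached 2-fold. Alternatives left out peaks that overlap the other strand, have several identifiers or lack an FDR at or below 0.01, used the peak with the highest input alone, added 0.1 or 1 RPM, required input of at least 1 RPM, or counted every listed identifier. A further 3 alternatives (near copies counted once, peaks wider than 1000 nt left out, input of at least 100 RPM) were chosen after seeing the data. No paired analysis was possible because the list holds 1 pooled value for each kind of library, and for the same reason no replicate could be left out. The planned grouping by identical protein was not run. Depth limits the genes with little RNA most, such as H1-6 and H2BC6, whose input was 1.12 and 3.3 RPM.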

Other observations

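The 2 kinds of library ranked the histone genes differently among all genes of the list. H2BC21 was at rank 29 among all genes in input and at rank 45 in PRMT5 RIP, whereas H2AC17 was at rank 154 in input and at rank 33 in PRMT5 RIP. H1-4 was at rank 82 in input and at rank 12 in PRMT5 RIP. H3C12 was at rank 52 in input and at rank 74 in PRMT5 RIP.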
